A study of Homo sapiens with 6 samples.

Results

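The 7 genes described here encode poly(A)-binding proteins (PABPs) and the small PABP-interacting proteins (PAIPs) that regulate them: PABPC1, PABPC4, PABPC1L, PABPN1, PAIP1, PAIP2 and PAIP2B. They were chosen by gene name, with earlier results of these data known, and make up 7 of the 25071 genes in the count table. All 7 were among the 15816 genes with enough counts to test. RNA was sequenced from 6 libraries of PLC/PRF/5, an established human hepatoma cell line, 3 from cells given a plasmid that overexpresses ARD1 and 3 from cells given a control vector, all harvested 48 h after transfection. The gene symbol of ARD1 is NAA10. Its product is the enzyme of NatA, an acetyltransferase that modifies the N-terminus of many proteins as they are made. The study's title connects ARD1 to acetylation of PABPC1, so the comparison here asks whether the transcripts of PABPC1, its paralogues and its regulators differed between the groups. These libraries measure RNA, and PABP protein, its acetylation and poly(A) tail length were not measured in them. The plasmids' promoter is not given in the sources used here, and 1 cell line stands for all results.

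Cytoplasmic PABPs coat the poly(A) tail of mRNAs and bind the scaffold eIF4G at the cap, an arrangement called the closed loop, which favours translation initiation and shields the tail from trimming. PAIP1 is a partner that promotes translation, while PAIP2 and PAIP2B compete with the tail and with eIF4G for PABP and repress it. PABPN1 works in the nucleus, where it stimulates the poly(A) polymerase and helps set tail length. In mammals the PABPC1 transcript also carries a 5′ terminal oligopyrimidine (TOP) tract, a start-site element shared with mRNAs of the translation machinery.

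NAA10 had 355.1, 400.2 and 294.1 CPM (counts scaled to library size, here with TMM factors, which adjust for differences in RNA composition) in ARD1 libraries, against 35.57, 32.17 and 36.19 CPM in control libraries, so the labels and the transfected gene go together. Libraries held 21857327 to 25011357 counts, and log2 CPM across genes correlated at 0.989 to 0.993 within groups and 0.926 to 0.935 between them. Of the controls, replicate 1 was the most distant: its counts gave chi-square values of 15.95 and 18.46 per degree of freedom against the remaining controls, and other pairs of libraries in a group gave 2.436 to 4.089. For the 7 genes, values without it are given where a call or sign changed or a ratio moved by over 1.5 times. Of 8 hepatocyte markers, 6 were tested, of which 2 were higher and 4 lower with ARD1. Their summed level was 172.5 to 195.1 CPM in ARD1 libraries and 700.7 to 736.8 CPM in controls, with ALB present in every library and TTR at 0 counts in all 3 ARD1 libraries and at 2, 5 and 2 counts in controls. Summed epithelial markers (KRT8, KRT18, EPCAM and CDH1) reached 1808 to 1880 CPM with ARD1 and 2772 to 3558 CPM in controls. For 5 endothelial markers the sums were 90.19 to 102.8 CPM with ARD1 and 70.00 to 82.70 CPM in controls. For 6 fibroblast and stellate markers they were 17.62 to 20.22 CPM with ARD1 and 77.97 to 98.60 CPM in controls, and for 6 immune markers 8.747 to 9.486 CPM with ARD1 and 16.79 to 19.06 CPM in controls. The fibroblast and stellate markers were mixed: of 5 tested, COL3A1 and LUM were lower, COL1A1 was higher and 2 did not pass. Of 3 tested immune markers, 2 were lower and 1 did not pass. The endothelial markers did not move together: of 4 tested, PECAM1, KDR and VWF were higher and CDH5 was lower. PECAM1 had 1357, 1635 and 1367 counts in ARD1 libraries and 824, 641 and 673 in controls, and KDR had 754, 1076 and 844 with ARD1 and 207, 173 and 177 in controls. VWF had 39, 28 and 38 counts with ARD1 and 0, 0 and 2 in controls, while CDH5 had 1, 0 and 4 counts with ARD1 and 777, 642 and 747 in controls. The part of these differences in the results below was not tested.

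The family did not move as a block. PABPC1L, the embryonic PABP, was 5.28-fold higher with ARD1, PAIP1 was slightly higher, and PABPC1, PABPC4 and PABPN1 were modestly lower, while PAIP2 and PAIP2B did not pass the test. In numbers, 2 of 7 genes were higher and 3 lower at a Benjamini-Hochberg adjusted p under 0.05 (edgeR's quasi-likelihood test over all genes). The background was high: 64.6% of all tested genes passed, 32.4% higher and 32.2% lower, so passing the test does not by itself set a gene apart. With library totals in place of TMM, 7606 genes were higher and 3486 lower, where TMM gave 5127 higher and 5096 lower. The values of the groups did not overlap for 5 of the 7 genes, against 69.6% of all tested genes. The median log2 fold change over all tested genes was 0.03 and the median absolute change 0.49, a size that PABPC1L alone among the 7 exceeded. With bulk RNA, fewer cells expressing a gene and less of its RNA per cell cannot be told apart.

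**Figure D1:**
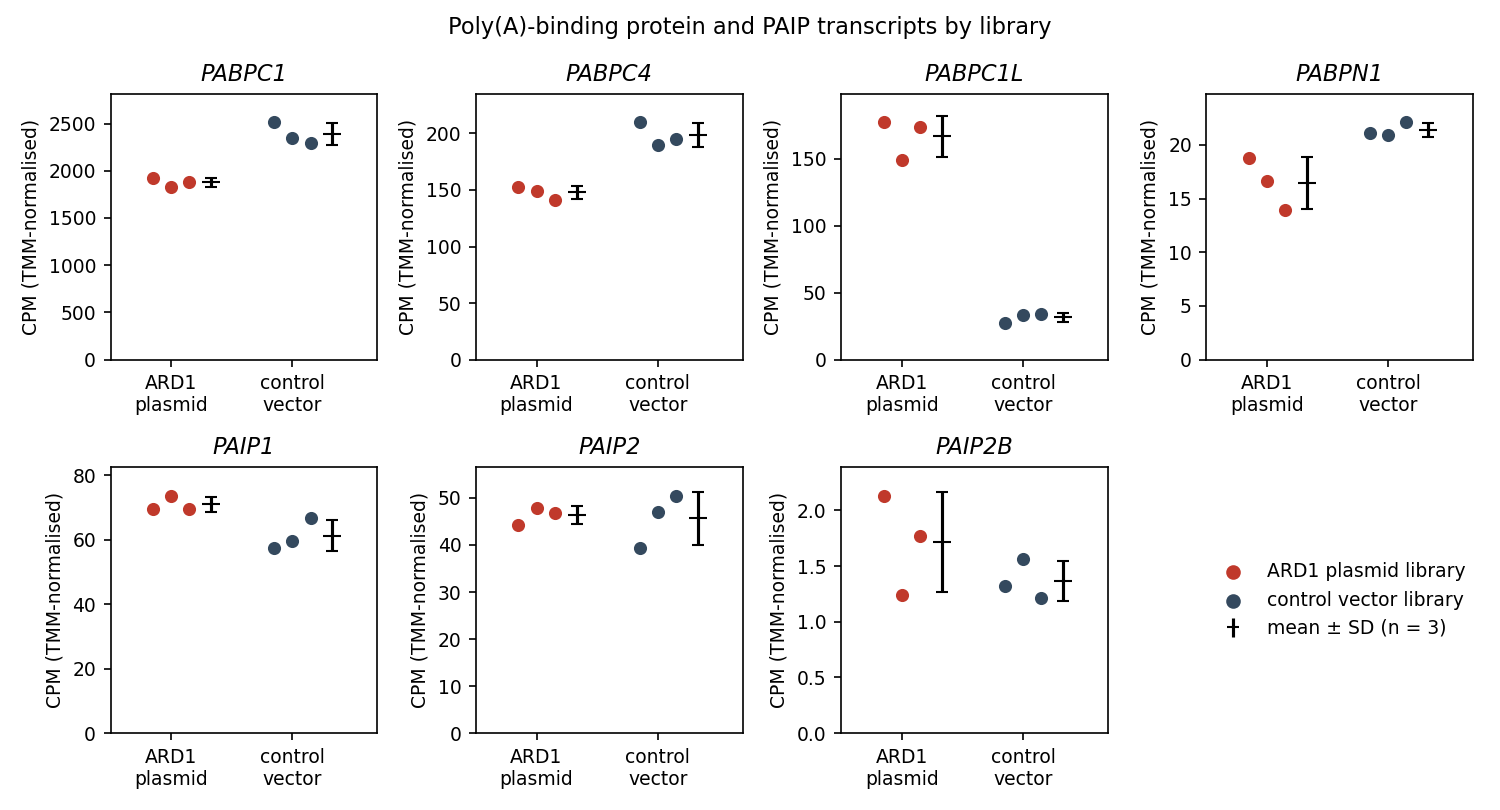
Level of each gene in CPM (TMM-normalised) in the 3 ARD1 plasmid libraries, left in each panel, and the 3 control vector libraries, right; points are libraries and bars show the mean ± SD (n = 3). The groups separate for PABPC1, PABPC4, PABPC1L, PABPN1 and PAIP1 and overlap for PAIP2 and PAIP2B.

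PABPC1, the main cytoplasmic PABP, lies on the minus strand of chromosome 8 at 100685816 to 100722809 (GRCh38, GENCODE 29). It had 1923, 1826 and 1883 CPM in ARD1 libraries, against 2516, 2347 and 2293 CPM in control libraries. Every ARD1 library was below every control library. The means were 1878 ± 48.5 CPM with ARD1 and 2386 ± 117 CPM in controls (SD, n = 3 each), a log2 fold change of -0.35 (95% interval -0.49 to -0.20, edgeR adjusted p = 0.000423). The size depended on the scaling: with plain library totals the log2 fold change was -0.08 and did not pass (edgeR adjusted p = 0.209), while that scaling also moved the median of all genes to 0.30. Before any scaling factor, PABPC1 had 2102, 1994 and 2071 CPM of raw counts in ARD1 libraries, against 2212, 2174 and 2132 in control libraries, again without overlap. Of all tested genes, 30.9% had a lower log2 fold change.

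Despite its lower CPM, PABPC1 stood higher in the order of transcripts in ARD1 libraries. By CPM per kilobase of the longest transcript it ranked between 38 and 41 of 15238 genes in ARD1 libraries and between 53 and 57 in control libraries. Relative to the summed counts of other TOP mRNAs, too, PABPC1 was higher in ARD1 libraries. For every 100 counts of 14 other TOP mRNAs summed, among them the elongation factors EEF1A1 and EEF2, PABPC1 had 24.86, 22.63 and 24.32 counts in ARD1 libraries, against 17.73, 17.00 and 16.53 counts in control libraries. This ratio was chosen after the values were seen and has no test. The most abundant genes weigh most in the sum, EEF1A1 at a mean of 5680 CPM and EEF2 at 2530 CPM in controls. The ratio does not stand for each TOP mRNA: NPM1, at a log2 fold change of -0.27, was nearer 0 than PABPC1 at -0.35.

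PABPC4, the inducible cytoplasmic PABP first described in activated T cells, lies on the minus strand of chromosome 1 at 39560816 to 39576790. It had 152.8, 149.2 and 141.4 CPM in ARD1 libraries, against 210.1, 190.0 and 195.0 CPM in control libraries. The groups did not overlap. The log2 fold change was -0.42 (95% interval -0.57 to -0.28, edgeR adjusted p = 8.34e-05). It stayed past the threshold under all 17 alternatives, with the smallest value of -0.16 for library totals (edgeR adjusted p = 0.0297).

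In counts, PABPC4 and PABPC1 kept nearly the same proportion to each other. There were 7.944, 8.170 and 7.506 PABPC4 counts per 100 PABPC1 counts in ARD1 libraries, against 8.348, 8.097 and 8.506 in control libraries. The ranges overlap, and the log2 difference was -0.08 (two-sided exact permutation p = 0.2, adjusted p = 0.3 over the 6 ratios compared). The 9 differences between single libraries of the groups ran from -0.18 to 0.01. A ratio of counts within a library does not depend on a scaling factor applied to the whole library, but 3 libraries against 3 cannot give an exact p below 0.1. With GC and length offsets, which act gene by gene, the 2 genes lay further apart, PABPC4 at -0.45 and PABPC1 at -0.27.

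PABPC1L, known as the embryonic PABP for its role in oocytes and early embryos, lies on the plus strand of chromosome 20 at 44910062 to 44959035. It had 177.4, 148.8 and 173.7 CPM in ARD1 libraries, against 27.43, 33.17 and 34.03 CPM in control libraries. The lowest ARD1 library was far above the highest control library. The means were 166.6 ± 15.5 CPM with ARD1 and 31.5 ± 3.59 CPM in controls (SD, n = 3 each), a log2 fold change of 2.40 (95% interval 2.19 to 2.61, edgeR adjusted p = 3.57e-11). Of all tested genes, 98.5% had a lower log2 fold change. The gene passed under all 17 alternatives, with log2 fold changes of 2.30 to 2.66.

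The promoter windows of PABPC1L, the gene with the largest difference, and of PAIP2B, the least expressed of the 7, are shown for contrast (RefSeq, GRCh38.p14, 250 bases before to 50 after the annotated start). The PABPC1L window is chr20:44909810-44910109 on the plus strand and the PAIP2B window is chr2:71227054-71227353 on the minus strand. Capitals mark GGGCGG, the core of the GC box, on either strand.
PABPC1L: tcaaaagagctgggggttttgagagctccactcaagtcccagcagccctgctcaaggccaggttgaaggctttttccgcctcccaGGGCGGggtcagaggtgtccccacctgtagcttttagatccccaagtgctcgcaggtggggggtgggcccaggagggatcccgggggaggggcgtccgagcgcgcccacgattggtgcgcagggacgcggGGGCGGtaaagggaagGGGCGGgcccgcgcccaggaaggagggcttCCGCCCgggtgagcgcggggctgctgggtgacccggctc
PAIP2B: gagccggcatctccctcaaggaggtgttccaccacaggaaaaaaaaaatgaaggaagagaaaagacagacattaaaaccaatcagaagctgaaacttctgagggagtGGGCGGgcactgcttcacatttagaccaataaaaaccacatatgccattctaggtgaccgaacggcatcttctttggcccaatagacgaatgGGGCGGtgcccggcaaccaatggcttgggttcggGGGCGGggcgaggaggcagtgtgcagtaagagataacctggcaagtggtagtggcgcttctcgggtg
The motif occurs 4 times in the PABPC1L window and 3 times in the PAIP2B window, and 45% of 35116 promoter windows hold at least 1 match. The G and C content is 69% in the PABPC1L window and 52.3% in the PAIP2B window. Entries were found for 5 of the 7 genes, with 8 windows in all, and PABPC1 and PABPC4 had none in the table used. None of the 8 windows holds TGATGNAA on either strand, which occurs in 3.62% of all windows. CACGTG, the E-box core, was found in 1 of the 8, at position -138 of a PAIP2 start, and occurs in 7.26% of all windows. A pyrimidine run of at least 5 bases led by C at the annotated start, as in a TOP tract, was in 0 of 8 windows and in 4.07% of all windows. A match is a description of these letters and not of a bound site.

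Per length, the make-up of the cytoplasmic PABP transcripts differed between the groups. PABPC1 made up 81.86, 82.85 and 82.14% of the summed CPM per kilobase of PABPC1, PABPC4 and PABPC1L in ARD1 libraries, against 91.07, 90.85 and 90.43% in control libraries. PABPC1L made up 11.84, 10.58 and 11.87% in ARD1 libraries, against 1.556, 2.013 and 2.104% in control libraries. PABPC4 made up 6.309, 6.568 and 5.982% in ARD1 libraries, against 7.376, 7.137 and 7.463% in control libraries. None of these 3 shares overlapped between groups, and PABPC1 remained the main transcript in every library. The shares of a library add up to its whole, so a higher PABPC1L share by itself lowers the others. The 3 shares are therefore not separate results, and PABPC4 per PABPC1 overlapped between groups. With all exon bases merged as the length, the mean PABPC1L share was 7.41% with ARD1 and 1.18% in controls. Against PABPC1 counts alone, PABPC1L had 9.223, 8.148 and 9.221 counts per 100 in ARD1 libraries and 1.090, 1.413 and 1.484 in control libraries. That log2 difference was 2.75, with single library differences of 2.46 to 3.08 (two-sided exact permutation p = 0.1, the smallest possible, adjusted p = 0.2).

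PABPN1, the nuclear PABP, lies on the plus strand of chromosome 14 at 23321289 to 23326185. It had 18.75, 16.68 and 13.90 CPM in ARD1 libraries, against 21.15, 20.96 and 22.14 CPM in control libraries. The groups did not overlap, although ARD1 replicate 3 was the lowest by a wide step. The log2 fold change was -0.38 (95% interval -0.62 to -0.14, edgeR adjusted p = 0.00760). The call was lost without ARD1 replicate 3, at -0.27 (edgeR adjusted p = 0.0633), and with library totals, at -0.12 (edgeR adjusted p = 0.373). With GC and length offsets the log2 fold change was -0.23 and still passed. Relative to PABPC1, PABPN1 had 0.975, 0.9135 and 0.7379 counts per 100 in ARD1 libraries and 0.8406, 0.8929 and 0.9653 in control libraries. Those ranges overlap, with a log2 difference of -0.05 and single library differences of -0.39 to 0.21 (two-sided exact permutation p = 0.9, adjusted p = 0.9). Leaving out 1 library at a time gave -0.13 to 0.07, with -0.095 without control replicate 1.

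PABPN1 shares 16.8% of its exon bases with the readthrough gene BCL2L2-PABPN1 on the same strand, and the counting could split reads between them. BCL2L2-PABPN1 itself had 1.339, 0.2625 and 0.6043 CPM in ARD1 libraries and 0.6368, 0.6653 and 0.6735 CPM in control libraries. The groups overlap, its log2 fold change of 0.14 did not pass, and its level is small beside that of PABPN1. How reads shared by both genes were counted is not given in the sources used here. They may have been left out, so this small level does not show how many PABPN1 reads are affected. The PABPN1 level and difference are uncertain to that extent.

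PAIP1, the PAIP that promotes translation and contacts eIF4A and eIF3 besides PABP, lies on the minus strand of chromosome 5 at 43526267 to 43557758. It had 69.47, 73.67 and 69.57 CPM in ARD1 libraries, against 57.45, 59.64 and 66.59 CPM in control libraries. The groups did not overlap, but the gap between the lowest ARD1 library and control replicate 3 was small. The log2 fold change was 0.21 (95% interval 0.04 to 0.38, edgeR adjusted p = 0.0273). The call was lost without control replicate 2, at 0.17 (edgeR adjusted p = 0.129), without ARD1 replicate 1 at 0.23 (0.0589), replicate 2 at 0.18 (0.112) or replicate 3 at 0.23 (0.0607), and without the filter on low counts, at 0.20 (0.0553). Library totals gave 0.47. Per 100 PABPC1 counts, PAIP1 had 3.613, 4.034 and 3.694 counts in ARD1 libraries and 2.283, 2.541 and 2.904 in control libraries, without overlap. The log2 difference was 0.56, with single library differences of 0.32 to 0.82 (two-sided exact permutation p = 0.1, the smallest possible, adjusted p = 0.2). Most tested genes were higher relative to PABPC1: 30.9% had a lower log2 fold change than PABPC1, and 60.7% a lower one than PAIP1.

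PAIP2, the PABP inhibitor that displaces PABP from poly(A), lies on the plus strand of chromosome 5 at 139341587 to 139369720. It had 44.24, 47.92 and 46.77 CPM in ARD1 libraries, against 39.44, 47.05 and 50.51 CPM in control libraries. The ARD1 values lay inside the range of the controls. The log2 fold change was 0.02 (95% interval -0.18 to 0.22, edgeR adjusted p = 0.859). Its sign depended on the setting: it was -0.09 without control replicate 1, -0.14 with GC and length offsets (edgeR adjusted p = 0.0479) and 0.28 with library totals (edgeR adjusted p = 0.0288). Per 100 PABPC1 counts, PAIP2 had 2.300, 2.624 and 2.483 counts in ARD1 libraries and 1.567, 2.005 and 2.203 in control libraries, without overlap. The log2 difference was 0.37, with single library differences of 0.06 to 0.74 (two-sided exact permutation p = 0.1, the smallest possible, adjusted p = 0.2), and it was 0.23 without control replicate 1. PABPC1 itself was at -0.35, and 30.9% of tested genes had a lower log2 fold change, so most genes were higher relative to PABPC1. PAIP2 was near the middle of all tested genes, with 49.4% below it, so this ratio does not set PAIP2 apart.

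PAIP2B, the paralogue of PAIP2 with a like inhibitory role, lies on the minus strand of chromosome 2 at 71182739 to 71227083. It was near the lower end of what could be tested, with 51, 33 and 44 counts in ARD1 libraries and 29, 33 and 27 counts in control libraries. In CPM these were 2.134, 1.237 and 1.773 in ARD1 libraries, against 1.319, 1.568 and 1.212 in control libraries. The groups overlap, since ARD1 replicate 2 was as low as the controls. The log2 fold change was 0.32 with a wide 95% interval of -0.27 to 0.91 (edgeR adjusted p = 0.319). ARD1 values spread more than control values, and leaving out 1 library gave 0.14 to 0.52, so no difference was established for PAIP2B. Per 100 PAIP2 counts there were 4.825, 2.582 and 3.790 PAIP2B counts in ARD1 libraries and 3.345, 3.333 and 2.400 in control libraries. Those ranges overlap as well, with a log2 difference of 0.27 (two-sided exact permutation p = 0.4, adjusted p = 0.48), which was 0.06 to 0.52 with 1 library left out.

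**Figure D2:**
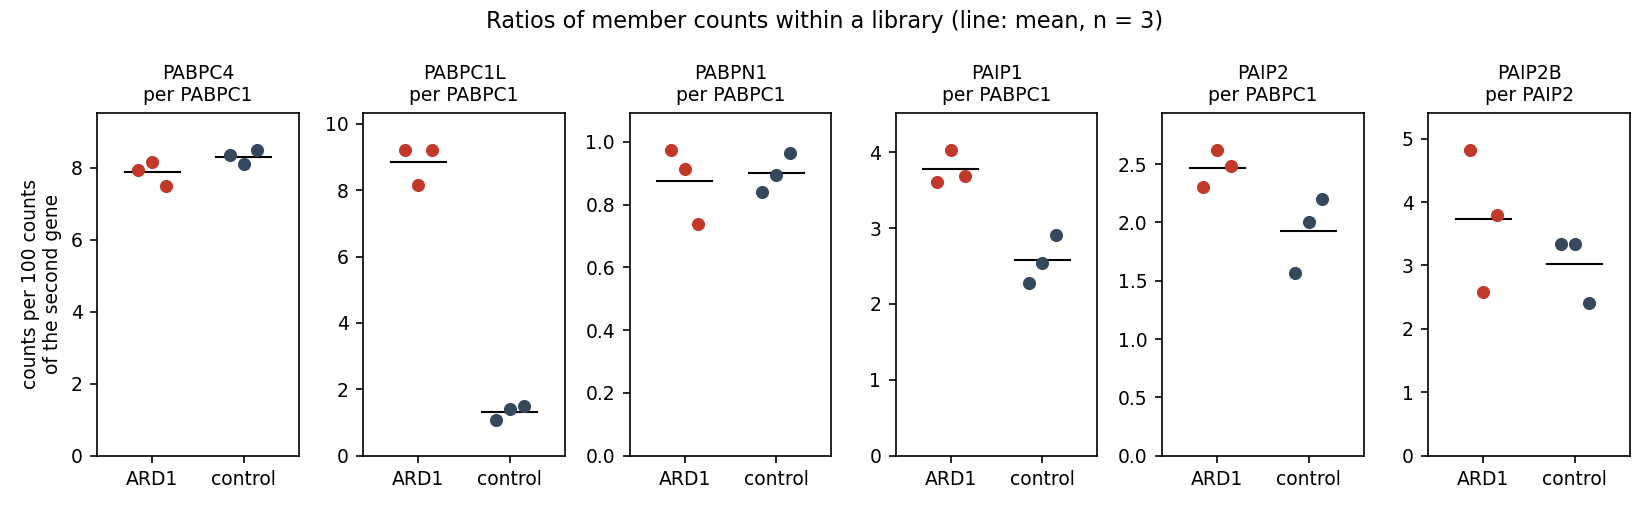
Counts of 1 gene per 100 counts of another within each library, for 6 gene pairs, with ARD1 plasmid libraries left and control vector libraries right; points are libraries and lines are means (n = 3). PABPC1L, PAIP1 and PAIP2 per PABPC1 do not overlap between groups, while PABPC4 and PABPN1 per PABPC1 and PAIP2B per PAIP2 do. PABPC1 had a lower log2 fold change than most tested genes, which raises ratios to it.

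A factor applied to a whole library leaves the plotted ratios as they are. GC and length offsets act gene by gene, are not in these ratios and do move the genes relative to each other. With them PAIP2 was at -0.14, PABPC1 at -0.27 and PABPC4 at -0.45. In the plot of 3 scalings, plain library totals shift each gene upward by a similar amount. With them the calls of PABPC1 and PABPN1 were lost and PAIP2 was past the threshold. Summed over the 7 genes, CPM of raw counts without a scaling factor was 2610, 2472 and 2563 in ARD1 libraries and 2525, 2501 and 2476 in control libraries. These sums overlap between the groups.

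**Figure D3:**
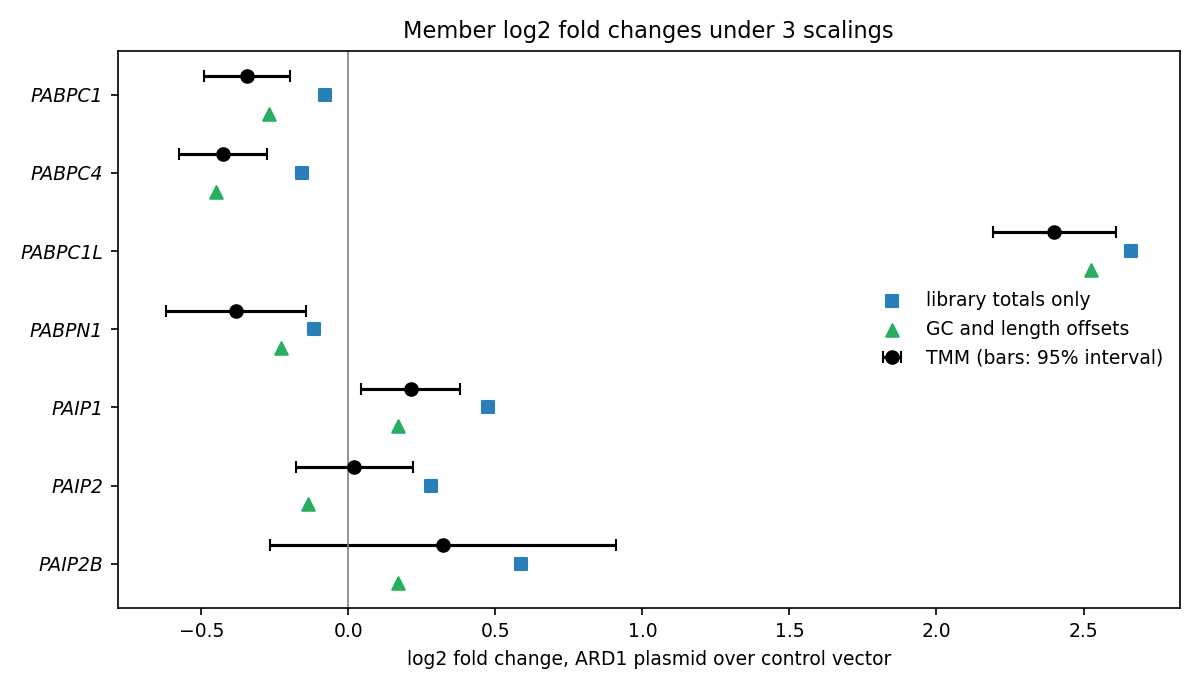
Log2 fold change of each gene, ARD1 plasmid over control vector, with TMM scaling (circles, bars are 95% intervals), library totals (squares) and GC and length offsets (triangles). PABPC1 sits at -0.35 with TMM and -0.08 with library totals, PABPC1L lies beyond 2 under all 3 scalings, and PAIP2 falls on both sides of 0.

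Set in order of CPM per kilobase of the longest transcript, the ARD1 libraries read PABPC1 at 538.8 ± 13.9, PABPC1L at 74.95 ± 6.98, PABPC4 at 41.1 ± 1.62, PAIP1 at 25.5 ± 0.862, PAIP2 at 20.2 ± 0.820, PABPN1 at 5.94 ± 0.879 and PAIP2B at 0.273 ± 0.0719 (SD, n = 3). In control libraries the order was PABPC1 at 684.5 ± 33.4, PABPC4 at 55.2 ± 2.90, PAIP1 at 22.01 ± 1.71, PAIP2 at 19.9 ± 2.47, PABPC1L at 14.2 ± 1.61, PABPN1 at 7.74 ± 0.228 and PAIP2B at 0.218 ± 0.0291 (SD, n = 3). In the controls the means of PAIP1 and PAIP2 were close beside their SDs, and elsewhere neighbours were further apart than their SDs. Within each control library PAIP1 was still the higher, at 20.65, 21.44 and 23.93 against 17.17, 20.48 and 21.99 for PAIP2. PABPC1L thus stood above PABPC4 in ARD1 libraries and below PAIP2 in control libraries. Its rank among 15238 genes was 562 to 727 in ARD1 libraries and 4015 to 4748 in control libraries. With merged exon bases as the length, PABPC4 and PAIP1 came close in ARD1 libraries, at 21.79 and 20.91, and PABPC1L and PABPN1 in control libraries, at 6.33 and 5.53 CPM per kilobase.

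Several of these genes share sequence with others. Of the 50-base stretches of the longest transcript, 12% of those of PABPC1 occur in transcripts of 9 other genes, with PABPC3 sharing the most. The share was 29.8% for PAIP1, 20.6% for PABPN1, 1.52% each for PABPC4 and PABPC1L, and 0 for PAIP2 and PAIP2B. The GENCODE 29 annotation has 13 PABPC1 pseudogene copies named PABPC1P, and 0 of them have values in the table. PAIP1 shares its 29.8% with AC026271.1, which has no values in the table either. The levels of PABPC1, PAIP1 and PABPN1, and the differences read from them, are uncertain to the extent of these shares. The handling of reads with several matches is not given in the sources used here. PAIP2 overlaps an antisense gene over 21.0% of its exon bases and PABPC4 overlaps PABPC4-AS1 over 3.6%. PABPC4-AS1 had 4, 11 and 8 counts in ARD1 libraries and 4, 7 and 2 counts in control libraries, too few to test. The library kit was directional, but whether strand was used in counting is not given, so reads of these antisense pairs cannot be told apart. PABPC3, PABPC5, PABPC4L, PABPN1L, PABPC1L2A and PABPC1L2B were not analysed here.

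The proteins that work with PABPs were read from lists chosen by function, with earlier results of these data known. The counts of this and the following lists are therefore descriptions. In the closed-loop and cap-binding list, 4 of 13 tested genes were higher, 3 were lower and 6 did not pass, with a median log2 fold change of 0.09 beside 0.03 over all genes. Over all tested genes 32.4% were higher and 32.2% lower, the shares against which this and the following counts stand. With library totals 8 of the 13 were higher and 2 lower (median 0.36), with GC and length offsets 6 were higher and 5 lower, and without control replicate 1 there were 6 higher and 3 lower. EIF4E3, a cap-binding protein, was higher by 1.35 on the log2 scale, EIF4EBP1, an inhibitor of eIF4E, by 0.71 and EIF4G3, a scaffold that binds PABP, by 0.60. EIF4B, which assists the helicase eIF4A, fell by 0.64, the cap-binding EIF4E2 by 0.59 and the helicase EIF4A2 by 0.19. The eIF3 subunits, to which PAIP1 binds, were mostly lower. Of 13 tested subunits, 11 were lower, 1 was higher (EIF3J, 0.37) and 1 did not pass, with a median of -0.53. With library totals 7 were lower and 2 higher, with a median of -0.26 beside 0.30 over all genes. The largest falls in that list were -0.98 for EIF3L, -0.86 for EIF3F and -0.64 for EIF3I. PAIP1 itself was on the other side of 0.

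A chosen list of TOP mRNAs, the class to which PABPC1 belongs, was lower throughout: 14 of 14 tested, with a median log2 fold change of -0.83 and a range of -1.23 to -0.27. The list is mainly of translation factors and holds no ribosomal protein genes named RPL or RPS, so it does not stand for the whole class. EEF1B2 at -1.23, EEF2 at -1.11 and RACK1 at -1.11 led the list, so PABPC1 at -0.35 was nearer 0 than the list's median. With library totals 11 of the 14 were lower and the median was -0.57. EIF4B and the subunits EIF3E, EIF3F, EIF3H and EIF3L stand in this list and in a list above, so these counts are not independent. EEF1G was not analysed here.

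Proteins that bind the C-terminal domain of PABP or act with it gave 12 higher, 5 lower and 1 not past of 18 tested, with a median of 0.23. With library totals 13 were higher and 1 was lower, with a median of 0.50. The silencing factor TNRC6C at 1.15, and the translation termination factors GSPT2 at 0.60 and ETF1 at 0.52, were the largest rises. TOB1 at -0.52, TOB2 at -0.36 and PAN3 at -0.33, which bring deadenylases to PABP-bound tails, were the largest falls. Of 13 tested deadenylase subunits, 2 were higher, 7 were lower and 4 did not pass, with a median of -0.17 that became 0.09 with library totals, where 3 were higher and 2 lower. Without control replicate 1 there were 9 lower, and without ARD1 replicate 1 there were 4 lower and 1 higher. Without control replicate 2 or ARD1 replicate 2, too, 1 was higher. CNOT10 at 0.49 and PARN at 0.22 were the higher ones, and CNOT2 at -0.76, CNOT3 at -0.51 and PAN2 at -0.38 the largest falls. PAN3 counts in both lists.

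Nuclear polyadenylation factors, which act with PABPN1, gave 9 higher, 5 lower and 6 not past of 20 tested. Their median was 0.11, and it became -0.04 with GC and length offsets. With library totals 14 were higher and 2 lower, with a median of 0.37. The cleavage factor PCF11 at 1.21, the poly(A) polymerase PAPOLG at 0.89 and RBBP6 at 0.86 were the largest rises. NUDT21 at -0.69, a regulator of poly(A) site choice, CPSF1 at -0.47 and CSTF1 at -0.37 were the largest falls. PABPN1, at -0.38, was thus about as low as CSTF1.

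**Figure D4:**
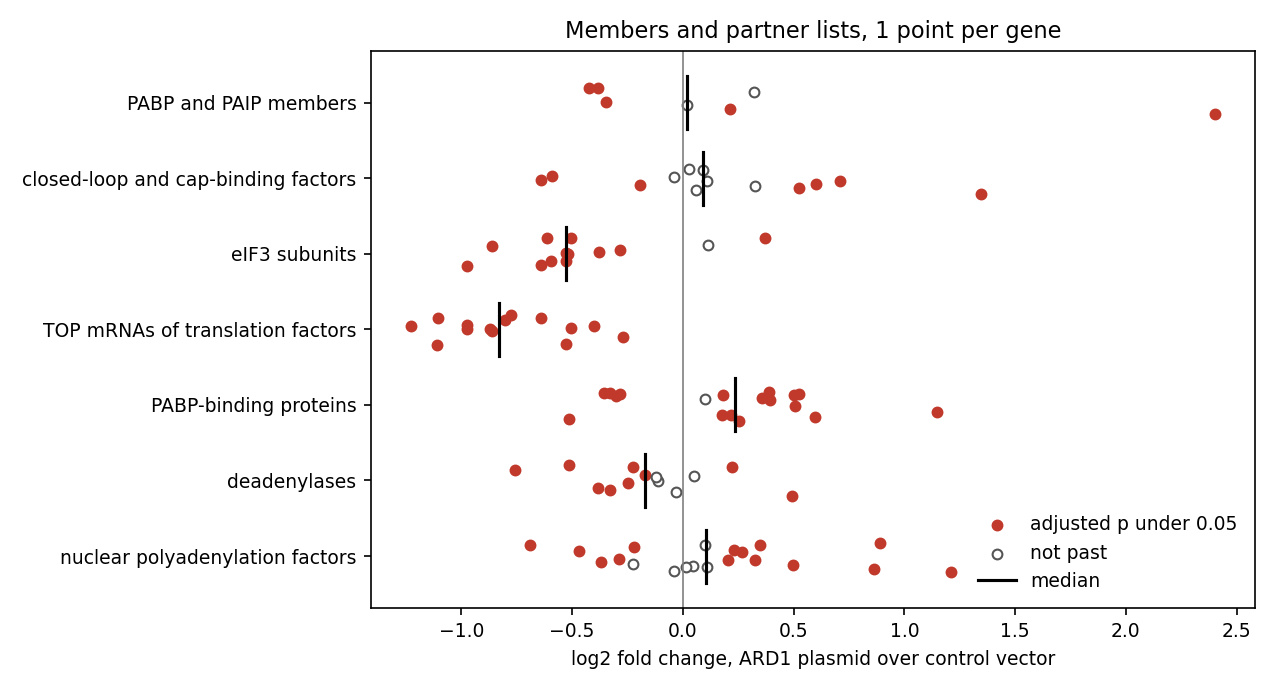
Log2 fold change, ARD1 plasmid over control vector, of the 7 PABP and PAIP genes (top row) and of the 6 partner lists, 1 point per gene; filled points have an adjusted p under 0.05 and black bars are medians. PABPC1L at 2.40 is the rightmost point, and all 14 TOP mRNAs of the list lie left of 0.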

How the data were processed

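The deposited table holds raw read counts per Ensembl gene, made by the authors and not normalized, for 3 ARD1 plasmid and 3 control vector libraries. Per the labels' protocols, ribosomal RNA was removed from total RNA and a directional kit was used. The submitters' processing notes name cutadapt 4.6, STAR 2.7.11b and GRCh38. Which program counted the reads, with which annotation and whether by strand, is not given in the sources used here. Of 25071 identifiers, 25052 had a symbol. Coordinates and lengths come from GENCODE 29, which holds 23129 of them.

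From these counts, 15816 genes were kept by filterByExpr, scaled by TMM and compared, ARD1 plasmid over control vector, with edgeR 4.0.16 (quasi-likelihood test, R 4.3.3), Benjamini-Hochberg adjusted over all of them. Standard errors came from the F statistic. The steps were tested on simulated data in which few genes differed. These data are unlike that setting, so the simulation does not test the choice of scaling. The 7 genes and the partner lists were chosen with earlier results of these data known. Named beside the 7 genes are NAA10, up to 3 largest rises and falls of each partner list past the threshold, expressed copies of the family, and the 5 genes nearest in profile to PABPC1 and to PABPC1L. Genes named outside this rule are list members, markers or annotation neighbours. Alternatives were RLE and upper-quartile scaling, library totals, libraries without NAA10, DESeq2 1.42.0, limma-voom (limma 3.58.1), other filters, GC and length offsets, a replicate block, a minimum fold and each library left out. Separate cultures are not stated in the labels, and the p-values therefore cover only variation among these libraries, possibly technical. Depth was 21857327 to 25011357 counts. Counts are not independent molecules.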

Additional observations from a re-analysis of the deposited data

How the results depend on the processing

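PABPC4 and PABPC1L kept their direction and call under all 17 alternatives, and PAIP2B passed in 0 of 17. Library totals without scaling factors changed most: the median log2 fold change of all genes became 0.30, and 68.6% of called genes were higher, against 50.2% with TMM. There PABPC1 was at -0.079 (adjusted p = 0.209), PABPN1 at -0.12 (0.373) and PAIP2 at 0.28 (0.0288, past the threshold). With GC and length offsets PAIP2 was at -0.14 (0.0479), and with a replicate block and those offsets at -0.14 (0.0609). Without the filter PAIP1 was at 0.20 (0.0553). Leaving out 1 library gave -0.48 to -0.27 for PABPN1, 0.16 to 0.25 for PAIP1 and -0.087 to 0.0697 for PAIP2, whose sign turned without control replicate 1 or ARD1 replicate 2. The causes were not tested. A minimum absolute log2 fold change of 1 left 3406 genes, 1536 higher and 1870 lower, because it adds a criterion. Same-numbered libraries did not deviate together (r = 0.0168, -0.0356 and 0.0342, and not every library correlated best with its own number), so the numbers were not taken as pairs. A replicate block called 10293 genes, against 10223, gave PABPC1 -0.34 and changed no call among the 7 genes. Of 238 list counts under the alternatives other than the minimum fold, 225 were within 1.5 times. With merged exon bases in place of the longest transcript, levels per kilobase in ARD1 libraries were 395.1 for PABPC1, 21.79 for PABPC4 and 33.43 for PABPC1L. PAIP2B had the fewest counts of the 7 genes and the widest interval, and the size of the PABPC1 difference rests on the scaling.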

Other observations

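The tested genes whose log2 CPM profile, centred on its own mean, lay closest to that of PABPC1 over the 6 libraries were UTP4, NUMB, ASB13, UBAC1 and CUX1, at Euclidean distances of 0.0442, 0.0459, 0.0464, 0.0499 and 0.0636. None of these 5 is in a partner list. Closest to PABPC1L were DDIT3, NLRC5, CSGALNACT2, ARRDC4 and EREG, at distances of 0.270, 0.285, 0.292, 0.304 and 0.305, with log2 fold changes of 2.33 to 2.49. Distances are a description over 6 libraries in 2 groups, and in such a design any genes with like fold changes lie close together.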
